A study of Mus musculus with 9 samples.

Results

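Sulfotransferases and glucuronosyltransferases of the mouse lateral nasal gland were followed across Cyp2g1-null, B6 and 129/Sv males. 10 genes were looked up by symbol: Sult1a1, Sult1b1, Sult1c1, Sult1d1, Sult1e1, Sult2b1, Sult5a1, Ugt2a1, Ugt2b5 and Ugt2b34. Every probe set that the platform annotation assigns to 1 of these genes alone was taken, and each was treated separately. This gave 11 probe sets of 9 genes among the 22626 probe sets on the array that are not controls. Of these, 8 belonged to sulfotransferases and 3 to glucuronosyltransferases. Ugt2a1 had no probe set of its own, and its 1 probe set is annotated to Ugt2a2 as well, so it is described separately.

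The 9 arrays comprised 3 of Cyp2g1-null glands on a mixed 129/Sv x C57BL/6 background, 4 of wild-type B6 (C57BL/6) glands and 2 of wild-type 129/Sv glands. Each array carried RNA of a pool of glands from 10 males aged 2 to 3 months. The null line lacks Cyp2g1, a cytochrome P450 of the nasal mucosa, and both parental strains served as its controls. No wild-type mice of the mixed background were included. Loss of Cyp2g1 and the background of the null line therefore cannot be told apart, whether the null arrays differ from 1 strain or from both.

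Sulfotransferases move a sulfonate group from the cofactor PAPS onto hydroxyl groups of phenols, steroids, thyroid hormones and catecholamines. UDP-glucuronosyltransferases attach glucuronic acid from UDP-glucuronic acid to similar substrates. Both reactions make small lipophilic molecules more soluble in water, and in the nose both families are known for handling inhaled chemicals, odorants and steroids after or alongside oxidation by cytochromes P450.

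The targeted gene was low on all null arrays. Cyp2g1 had signals of 55.7, 140.6 and 201.1 on null arrays, against 5916.8, 748.2, 2006.9 and 2799.4 on B6 arrays and 207.5 and 981.2 on 129/Sv arrays. The null and wild-type ranges did not overlap, although 129/Sv array 1 lay just above null array 3. Set against B6, the null glands had a log2 difference of -4.07 for Cyp2g1 (SE 0.62, limma adjusted p = 0.00268), and its difference from 129/Sv, -1.81 (SE 0.74, limma adjusted p = 0.325), did not pass. The difference from 129/Sv was -2.89 without 129/Sv array 1 and -0.73 without 129/Sv array 2. Array medians lay between 518.55 and 550.05, arrays correlated with each other at 0.925 to 0.942 across probe sets, and no duplicated array was found (0 identical pairs). Obp1a and Obp2a, odorant-binding proteins secreted by this gland, exceeded 112206 on every array. Other markers listed for its secretory cells were not all bright. Car6 ran from 387.5 to 70057.5 over all arrays, and neither Prol1 probe set exceeded 142.8. Markers of olfactory neurons varied between arrays, with a summed signal over the 5 of 10 listed genes on the array of 2422.7 to 8114.3 on null arrays, 2983.8 to 12397.8 on B6 arrays and 1817.6 to 3226.3 on 129/Sv arrays, and 0 of these signals were at 0. B6 arrays 1 and 2 were known from earlier results to stand apart from B6 arrays 3 and 4. In these pooled glands, fewer cells of a type and less RNA per cell cannot be told apart.

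Testing was limited by brightness. A probe set was tested when its signal exceeded the median of its array on at least 2 arrays, which 12575 probe sets did. 5 of the 11 passed: Sult1a1, Sult1c1, Sult5a1, Sult1e1 and 1 of the 2 probe sets of Sult1d1. The other 6, which belong to Sult1b1, Sult1d1, Sult2b1, Ugt2b5 and Ugt2b34, were above the median on 0 arrays. None of the glucuronosyltransferase probe sets among the 11 was therefore tested. Signals below are linear MAS5 values, differences are on the log2(signal + 16) scale, and tests are those of limma, two-sided, with p-values adjusted by the Benjamini-Hochberg method across the 12575 probe sets.

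**Figure D1:**
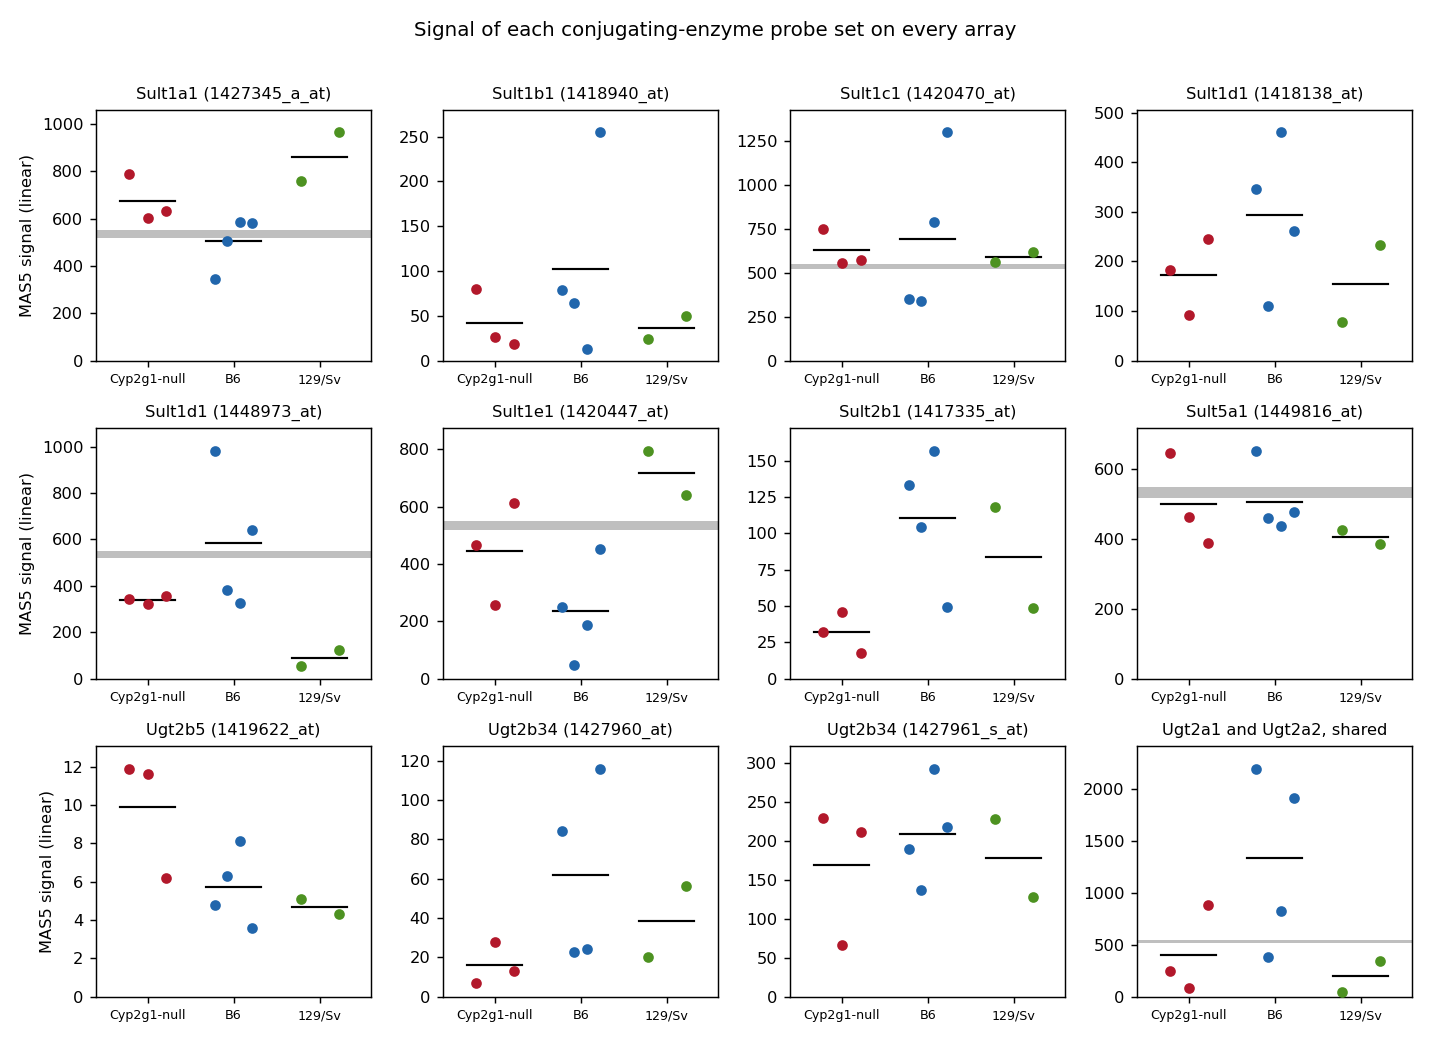
Linear MAS5 signal of each of the 11 probe sets, and of the probe set shared by Ugt2a1 and Ugt2a2, on every array. Each point is 1 array, in the order Cyp2g1-null, B6 and 129/Sv, black lines are group means, and the grey band is the range of array medians, drawn where it falls within the axis. The tested Sult1d1 probe set (1448973_at) lies lowest on the 2 arrays of 129/Sv, and Sult1e1 lies highest there.

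The difference that passed the test lay between the wild-type strains, at Sult1d1. Against B6, 0 of the 5 tested probe sets passed in null glands, 0 had an unadjusted p under 0.05, and 2.18% of all probe sets passed. Against 129/Sv, 0 of 5 passed in null glands, 1 (Sult1d1) had an unadjusted p under 0.05, and 2.04% of all passed. Null and 129/Sv arrays did not overlap at 2 of the 5, Sult1d1 and Sult1e1, where 31.5% of all probe sets did not overlap. Against the unweighted mean of both strains 0 of 5 passed and 0 had an unadjusted p under 0.05, where 1.22% of all passed. Between B6 and 129/Sv, 1 of 5 passed, which was higher in B6, and 3 had an unadjusted p under 0.05. Of all probe sets 5.19% passed there, and 2.92% passed as higher in B6. The arrays of both strains did not overlap at 4 of the 5, 2 higher and 2 lower in B6, where 25.1% of all probe sets did not overlap, 12.2% higher and 12.9% lower. The median difference between B6 and 129/Sv was 0.01 over the 5 and -0.01 over all probe sets, with 3 differences above 0 and 2 below. All 3 pairwise comparisons draw on the same arrays, so their values are not independent of each other.

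**Figure D2:**
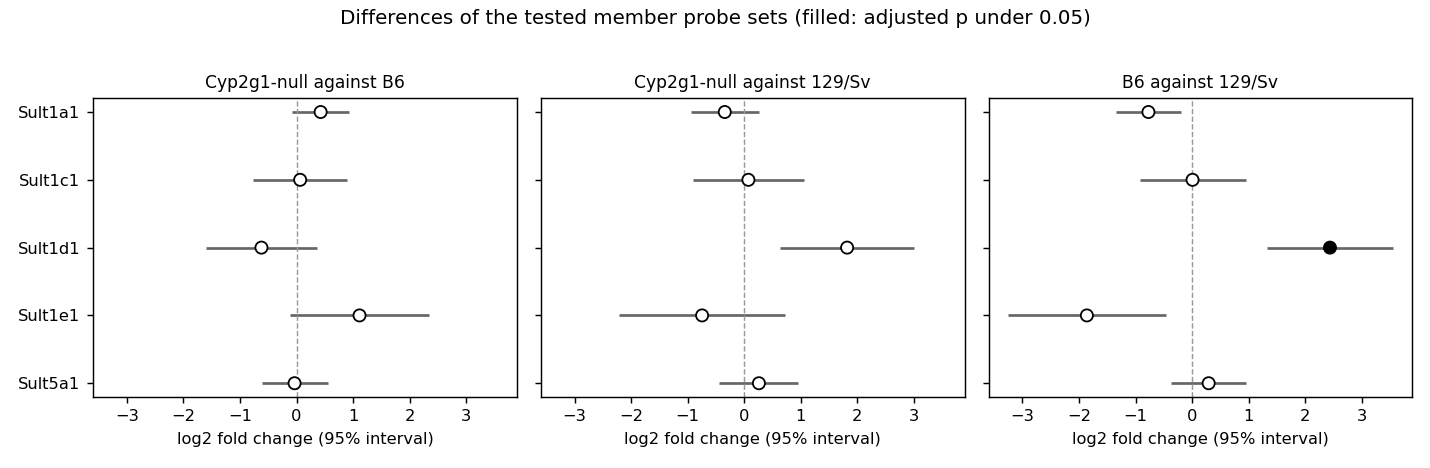
Log2 fold changes of the 5 tested probe sets in 3 comparisons, with 95% intervals. A filled point passed an adjusted p of 0.05, which 1 did, Sult1d1 between B6 and 129/Sv at 2.44. Sult1d1 and Sult1e1 differ between the strains with opposite sign.

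Sult1d1 and Sult1e1 are described first because they showed the widest differences between the strains among the 5 tested probe sets. On mouse chromosome 5 they are neighbours at the end of a run of conjugating-enzyme genes, which in the RefSeq annotation reads Ugt2b34, Ugt2b1, Ugt2b35, Ugt2b36, Ugt2b5, Ugt2b37, Ugt2a3, Ugt2b38, Ugt2a1, Ugt2a2, Sult1b1, Sult1d1 and Sult1e1. The remaining genes lie elsewhere, Sult1a1 and Sult2b1 on chromosome 7, Sult5a1 on chromosome 8 and Sult1c1 on chromosome 17. The 250 bases before the start of each of the 2 genes are shown, from the RefSeq GRCm38.p6 table, as the sequence beside which the opposite strain differences were measured. Both genes lie on the minus strand, Sult1d1 with chr5:87569007-87569256 before its start and Sult1e1 with chr5:87591612-87591861, and capitals mark the 1 motif match found.
Sult1d1: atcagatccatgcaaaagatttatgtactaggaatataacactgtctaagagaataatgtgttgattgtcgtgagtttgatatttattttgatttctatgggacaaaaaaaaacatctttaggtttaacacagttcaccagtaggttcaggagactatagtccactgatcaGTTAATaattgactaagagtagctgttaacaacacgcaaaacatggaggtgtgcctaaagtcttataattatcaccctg
Sult1e1: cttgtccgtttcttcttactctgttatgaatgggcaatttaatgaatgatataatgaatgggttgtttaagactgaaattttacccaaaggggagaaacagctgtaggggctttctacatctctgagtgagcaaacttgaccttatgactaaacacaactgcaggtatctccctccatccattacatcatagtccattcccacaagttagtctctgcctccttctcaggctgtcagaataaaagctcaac
The capitals, GTTAAT, are the half-site of the HNF1 family of transcription factors and lie 79 to 74 bases before the Sult1d1 start. This motif was searched on both strands, overlaps no other motif searched, and occurred in 6.43% of 32851 promoter windows of that length. It was chosen after the sequence had been read, so the match is a description only. The TATA box letters TATAAA were found on neither strand of either window and occur in 12.4% of all windows. The same held for the CCAAT box, spelled CCAAT (33.8% of all windows), and for the steroid receptor half-site TGTTCT (16.1%). The reference sequence is that of C57BL/6J and does not show the 129/Sv allele.

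Sult1d1, known in mouse for sulfonating dopamine and other catecholamines, was higher in B6 than in 129/Sv glands. Its tested probe set (1448973_at) had signals of 342.3, 321.1 and 356.6 on null arrays, against 983, 381.6, 325.2 and 642.7 on B6 arrays and 57 and 123.5 on 129/Sv arrays. Every B6 array and every null array exceeded both 129/Sv arrays, while null and B6 arrays overlapped. Signals averaged 583.1 ± 300.3 in B6 glands and 90.25 ± 47.02 in 129/Sv glands (SD, n = 4 and 2), a log2 difference of 2.44 (SE 0.52) or 5.42-fold, with a 95% interval of 2.50 to 11.75 (limma, adjusted p = 0.0124). Null glands averaged 340 ± 17.86 (SD, n = 3). They differed from 129/Sv by 1.82 on the log2 scale (SE 0.55, 95% interval 0.64 to 3.00, limma adjusted p = 0.138) and from B6 by -0.62 (SE 0.46, limma adjusted p = 0.576), neither of which passed.

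The call at Sult1d1 rested on few arrays. The probe set passed the brightness filter through B6 arrays 1 and 4 alone, which lie on the higher side of the difference, so its presence among those tested is no support for it. With no filter the limma adjusted p was 0.0135. Without 129/Sv array 1 the difference was 1.97 (adjusted p = 0.117), and without B6 arrays 1 and 2 together it was 2.23 (adjusted p = 0.0692). Some marker probe sets of other cells differed between the strains too. Of 5 tested probe sets of olfactory neurons 1, of Adcy3, was higher in B6 (log2 difference 1.25, limma adjusted p = 0.0224), as were 3 of 6 of the gland's own secretory cells and 2 of 9 of endothelium and stroma, while 1 of 8 of macrophages and neutrophils, of Lyz2, was lower in B6. Over all probe sets 2.92% were higher and 2.27% lower. The 3 secretory probe sets were of Scgb1b2, Scgb1b27 and Scgb2b27. Obp1a averaged 143900 in B6 and 129500 in 129/Sv glands, and Obp2a 161800 and 147100. Car6 ran the other way, at 4100 and 38430. Of 5 tested probe sets of sustentacular cells and Bowman glands 0 passed. The same held for 5 of ciliated epithelium, 7 of ducts and basal cells and 1 of B and plasma cells. The secretory list had a summed signal of 381807.5 to 494433.8 on B6 arrays and 349856.3 to 358479.6 on 129/Sv arrays. The endothelial and stromal list had a summed signal of 53995.1 to 65865.5 on B6 arrays and 46195 to 46310.8 on 129/Sv arrays. The part of the secretory, stromal and macrophage markers in the strain difference was not tested.

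A second Sult1d1 probe set (1418138_at) was too dim to be tested. It read 182.1, 91.2 and 246 on null arrays, against 345.1, 109.5, 459.9 and 260.7 on B6 arrays and 78.4 and 232.5 on 129/Sv arrays. There B6 and 129/Sv arrays overlapped, with a log2 difference of 0.86 that has the same sign and had an adjusted p of 0.668 in limma when no filter was used. The value was 0.16 without 129/Sv array 1 and -0.24 with the mean of 3 olfactory neuron markers as a covariate, so its sign is not settled.

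**Figure D3:**
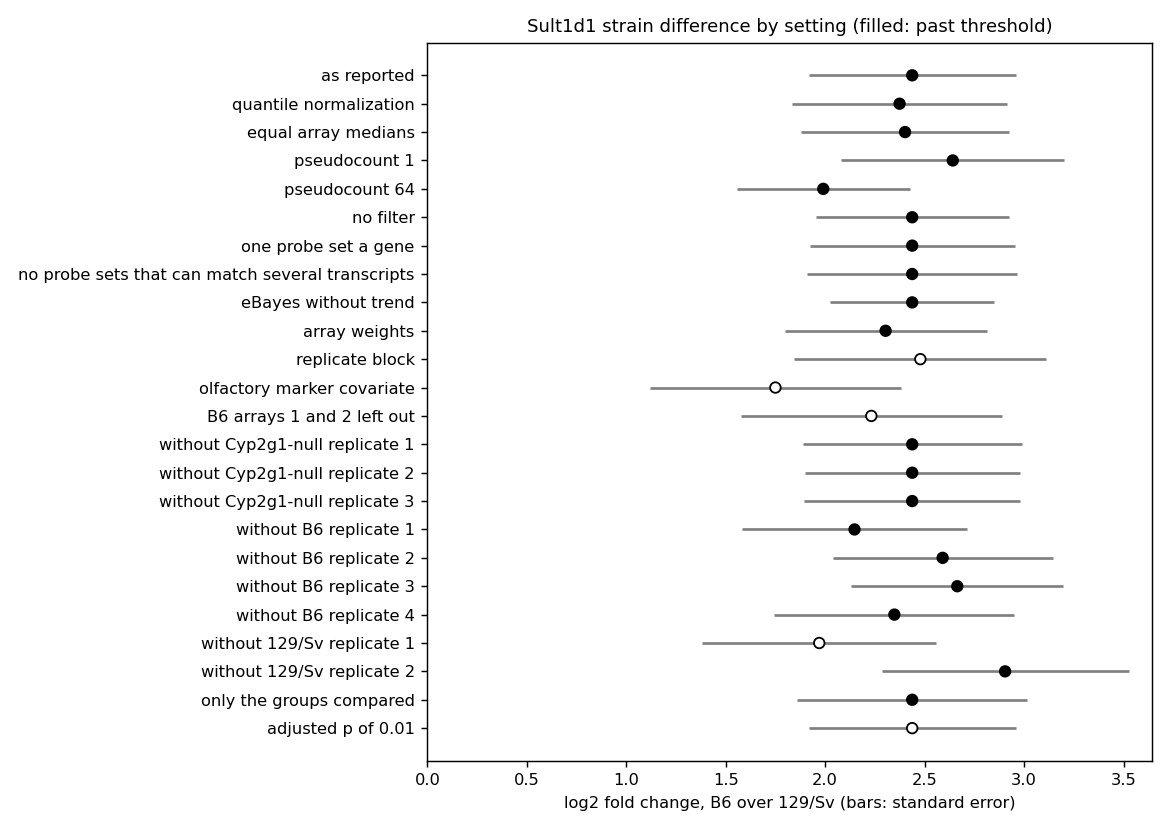
Log2 fold change of the tested Sult1d1 probe set between B6 and 129/Sv under each processing setting, with standard errors. Filled points passed the threshold of their setting. All values are positive, from 1.75 with the olfactory marker covariate to 2.90 without 129/Sv array 2, and open points mark the 5 settings in which the call was lost.

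Sult1e1, the estrogen sulfotransferase, ran the other way between the strains. It had signals of 467.8, 256 and 610.9 on null arrays, against 248.4, 48.8, 187.3 and 453.4 on B6 arrays and 795.5 and 641 on 129/Sv arrays. Both 129/Sv arrays lay above every other array, and null and B6 arrays overlapped. Means were 444.9 ± 178.6 in null glands, 234.5 ± 168.1 in B6 glands and 718.2 ± 109.2 in 129/Sv glands (SD, n = 3, 4 and 2). B6 differed from 129/Sv by -1.86 on the log2 scale (SE 0.65, 95% interval -3.26 to -0.46), which had an unadjusted p of 0.0129 and missed the threshold in limma after adjustment (adjusted p = 0.138). Null glands differed from B6 by 1.11 (SE 0.57, 95% interval -0.12 to 2.35, limma adjusted p = 0.397), or 0.57 without B6 array 2, and from 129/Sv by -0.75 (SE 0.69, limma adjusted p = 0.765). The probe set was above its array's median on 3 arrays, null array 3 and both 129/Sv arrays. As a ratio, B6 was at 0.275 of 129/Sv with an interval of 0.105 to 0.726, so the size of the strain difference is poorly fixed.

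Sult1a1, the main phenol sulfotransferase, had its highest mean in 129/Sv glands too. It read 789.8, 601 and 632.5 on null arrays, against 343.3, 506.9, 587.2 and 581.6 on B6 arrays and 758.4 and 964.3 on 129/Sv arrays. B6 arrays lay below all null and all 129/Sv arrays, while null and 129/Sv arrays overlapped. Null glands averaged 674.4 ± 101.1, B6 glands 504.8 ± 113.7 and 129/Sv glands 861.4 ± 145.6 (SD, n = 3, 4 and 2). B6 differed from 129/Sv by -0.77 on the log2 scale (SE 0.27, 95% interval -1.35 to -0.20, limma adjusted p = 0.134). Null glands differed from B6 by 0.43 (SE 0.24, limma adjusted p = 0.435), or 1.34-fold with an interval of 0.946 to 1.91, and from 129/Sv by -0.35 (SE 0.28, limma adjusted p = 0.719). The first was 0.26 without B6 array 1 and 0.19 without B6 arrays 1 and 2. None of these passed. Non-overlap of null and B6 arrays was found at 1 of the 5 tested probe sets, this one, and at 13.5% of all probe sets.

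Sult1c1, known in mouse as an olfactory sulfotransferase, had a pair of low and a pair of high B6 arrays. It had signals of 747.5, 557.3 and 575 on null arrays, against 348.5, 342, 788 and 1297.5 on B6 arrays and 560.8 and 620.7 on 129/Sv arrays. B6 arrays 1 and 2 lay below every null and 129/Sv array, and B6 arrays 3 and 4 lay above them. Means were 626.6 ± 105.1 in null glands, 694 ± 453.3 in B6 glands and 590.8 ± 42.36 in 129/Sv glands (SD, n = 3, 4 and 2). No difference passed, with log2 values of 0.06 for null against B6 and 0.01 for B6 against 129/Sv (limma adjusted p = 0.966 and 0.995), and the interval of the second ran from -0.93 to 0.95. Without B6 arrays 1 and 2 these differences were -0.69 and 0.76 (limma adjusted p = 0.16 and 0.162), so the group means of B6 depend on that pair.

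Sult5a1, a further member of the sulfotransferase family, passed in no comparison. It had signals of 645.2, 462.2 and 389.2 on null arrays, against 653.4, 459.4, 436.7 and 477.3 on B6 arrays and 427 and 385 on 129/Sv arrays. All B6 arrays exceeded both 129/Sv arrays by a small margin, and null arrays overlapped both. Log2 differences were -0.03 for null against B6 (SE 0.27, limma adjusted p = 0.976), 0.26 for null against 129/Sv (SE 0.32, limma adjusted p = 0.845) and 0.29 for B6 against 129/Sv (SE 0.31, limma adjusted p = 0.7). The last had a 95% interval of -0.37 to 0.95.

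Sulfotransferases Sult1b1 and Sult2b1 were dim and are given as values only. Sult1b1, which sulfonates thyroid hormones, read 80.2, 26.9 and 18.4 on null arrays, against 79, 64.8, 12.5 and 254.7 on B6 arrays and 24 and 50 on 129/Sv arrays. B6 array 4 stood above the rest and all groups overlapped. Sult2b1, which acts on cholesterol and pregnenolone, read 32.2, 45.7 and 17.9 on null arrays, against 133.1, 104.3, 157.1 and 49.4 on B6 arrays and 118.4 and 48.6 on 129/Sv arrays. All 3 null arrays were under the 6 wild-type arrays, with a log2 difference of -1.18 from the mean of both strains. The nearest values were 45.7 on null array 2 and 48.6 on 129/Sv array 2. With no filter its limma adjusted p was 0.529, and 4.87% of the probe sets tested did not overlap in this comparison.

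The glucuronosyltransferase probe sets were all dim. Enzymes of the Ugt2b family glucuronidate steroids and foreign compounds, chiefly in liver. Ugt2b5 read 11.9, 11.6 and 6.2 on null arrays, against 4.8, 6.3, 8.1 and 3.6 on B6 arrays and 5.1 and 4.3 on 129/Sv arrays. Ugt2b34 read 7.2, 28.1 and 13.3 on null arrays with its first probe set (1427960_at), against 84.1, 23, 24.3 and 116 on B6 arrays and 20.3 and 56.5 on 129/Sv arrays. Its second probe set (1427961_s_at), of a type that can match several transcripts, read 229.6, 66.8 and 210.8 on null arrays, against 189.3, 137.4, 292.3 and 217.1 on B6 arrays and 228.1 and 127.4 on 129/Sv arrays. Both Ugt2b34 probe sets overlapped in all 3 groups. No detection calls were used here, so these signals do not show whether the genes were expressed.

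Ugt2a1, the glucuronosyltransferase known from olfactory mucosa, could be read through the probe set shared with Ugt2a2 (1421484_at), and the 2 genes cannot be separated there. It had signals of 243.5, 82.5 and 882 on null arrays, against 2193.2, 382.2, 828 and 1914.9 on B6 arrays and 48.9 and 343.9 on 129/Sv arrays. All B6 arrays exceeded both 129/Sv arrays, and null arrays overlapped both strains. The probe set passed the brightness filter through null array 3 and B6 arrays 1, 3 and 4, and through no 129/Sv array. Its presence among those tested is therefore no support for the strain difference. Means were 402.7 ± 422.8 in null glands, 1330 ± 863.6 in B6 glands and 196.4 ± 208.6 in 129/Sv glands (SD, n = 3, 4 and 2). B6 differed from 129/Sv by 2.84 on the log2 scale (SE 0.86, 95% interval 0.98 to 4.70), which missed the threshold in limma (adjusted p = 0.0807) and passed it without B6 array 2 (3.33, adjusted p = 0.0446). The single 129/Sv arrays moved it further, to 1.60 without array 1 (limma adjusted p = 0.552) and to 4.08 without array 2 (limma adjusted p = 0.0543). Null glands differed from B6 by -1.95 (SE 0.76, limma adjusted p = 0.25) and from 129/Sv by 0.89 (SE 0.91, limma adjusted p = 0.797). The sign of the second value is not settled, since it was -0.34 without 129/Sv array 1 and 2.13 without 129/Sv array 2. It was 0.065 without null array 3 and -0.56 with the olfactory neuron marker mean as a covariate.

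The other glucuronosyltransferases read through shared probe sets were those of the Ugt1a locus, whose transcripts share most of their exons. 3 probe sets, each annotated to 8 Ugt1a genes, were bright enough to be tested. The first (1424783_a_at) averaged 2101 ± 224 in null glands, 1835 ± 311.2 in B6 glands and 2048 ± 41.44 in 129/Sv glands (SD, n = 3, 4 and 2). The second (1426260_a_at) averaged 2644 ± 119.2, 2553 ± 387 and 2814 ± 197.4 in the same groups, and the third (1426261_s_at) 634.3 ± 218.5, 508 ± 67.36 and 513.8 ± 70.43. None passed in any comparison, and the smallest limma adjusted p of the 3 was 0.551, for the first in null against B6.

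Signals of some of these genes moved with the olfactory neuron markers. The mean log2 signal of Omp, S100a5 and Gng13 was 8.85, 8.14 and 10.43 on null arrays, against 10.92, 8.49, 9.67 and 10.43 on B6 arrays and 7.61 and 8.40 on 129/Sv arrays. 6 relations across the 9 arrays were computed with exact two-sided permutation tests. Arrays were exchanged across groups, so these p-values also take in differences between the groups. The values with group means removed were not tested. The shared Ugt2a1 and Ugt2a2 probe set followed the markers with Pearson's r of 0.94 (exact permutation p = 0.00013, adjusted 0.000777) and Spearman's rho of 0.95 (p = 0.000353, adjusted 0.00212). It passed the brightness filter through null array 3 and B6 arrays 1, 3 and 4, which had the highest marker means. Its presence among those tested is therefore no support for the relation. Without B6 arrays 1 and 4, the 2 farthest from the median, r was 0.88 (exact permutation p = 0.0107), and it was 0.94 once group means were removed. Sult1d1 gave r of 0.80 (exact permutation p = 0.00487, adjusted 0.0146) and rho of 0.87 (p = 0.00451, adjusted 0.0135). Without the same 2 arrays its r was 0.61 (exact permutation p = 0.138), so the relation rests in part on them, and r was 0.67 once group means were removed.

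Sult1e1 did not follow the markers over all arrays, with r of -0.02 (exact permutation p = 0.964) and rho of -0.37 (p = 0.336), and gave r of 0.79 once group means were removed. Sult1a1 gave r of -0.60 and rho of -0.57 (exact permutation p = 0.0816 and 0.121), Sult5a1 gave 0.30 and 0.47 (0.419 and 0.213), and Sult1c1 gave 0.15 and 0.25 (0.701 and 0.521). With the marker mean as a covariate the B6 and 129/Sv difference of the shared Ugt2a1 and Ugt2a2 probe set was 0.43 (limma adjusted p = 0.783). The covariate brought Sult1d1 to 1.75 (limma adjusted p = 0.2) and Sult1e1 to -3.18 (limma adjusted p = 0.0211), which passed. Every B6 array had a higher marker mean than both 129/Sv arrays. Strain and marker level therefore cannot be told apart in these fits, and their values are given as a description only. No group holds enough arrays for a correlation within it.

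**Figure D4:**
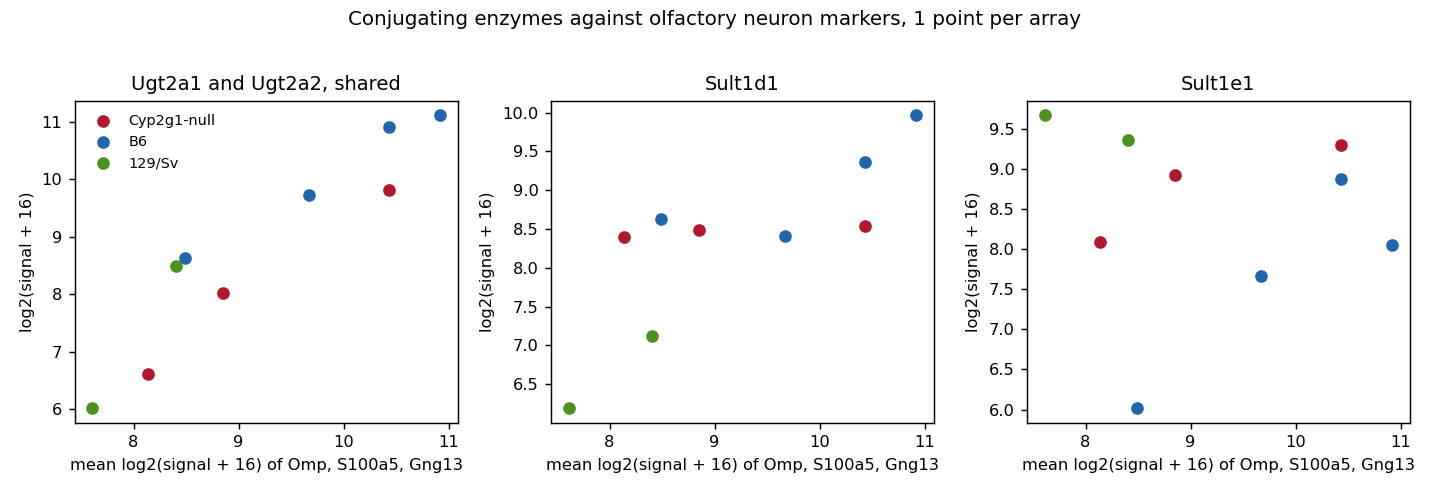
Log2(signal + 16) of 3 probe sets against the mean log2(signal + 16) of the olfactory neuron markers Omp, S100a5 and Gng13, with 1 point per array. The shared Ugt2a1 and Ugt2a2 probe set rises with the markers across groups (r = 0.94). Sult1e1 has both 129/Sv arrays at the top left and B6 array 2 at the bottom.

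Papss1 and 1 of 3 Papss2 probe sets were lower in B6 than in 129/Sv glands. PAPS, the sulfonate donor, is made from sulfate and ATP by Papss1 and Papss2. Papss1 had signals of 5083.2, 5351.8 and 5252.6 on null arrays, against 3311.8, 3516.1, 3394.9 and 3354.9 on B6 arrays and 4964.9 and 5691.3 on 129/Sv arrays. All B6 arrays lay below all others, and null and 129/Sv arrays overlapped. Papss1 was higher in null than in B6 glands by 0.62 on the log2 scale (SE 0.09, limma adjusted p = 0.00214) and lower in B6 than in 129/Sv glands by a difference of -0.65 (SE 0.10, limma adjusted p = 0.0019). Null and 129/Sv glands differed by -0.02 (SE 0.11, limma adjusted p = 0.967). Without 129/Sv array 2 the strain difference was -0.55 (limma adjusted p = 0.0508), while the difference of null from B6 passed in all 24 other settings tried. Both differences are measured against the same B6 arrays. Marker probe sets of other cells differed between null and B6 glands too, where 1.11% of all probe sets were higher and 1.07% lower. Of 5 tested probe sets of ciliated and respiratory epithelium 3 were higher in null glands. The summed signal of that list over 6 genes was 13467.4 to 14281.8 on null arrays, against 8264.8 to 10049 on B6 arrays and 9365.8 to 10683.5 on 129/Sv arrays. It was thus above 129/Sv on null arrays, where Papss1 was not. Of 8 tested probe sets of macrophages and neutrophils 1, of Lyz2, was higher in null than in B6 glands and lower in B6 than in 129/Sv glands, as Papss1 was. The summed signal of the macrophage and neutrophil list was 38059.1 to 44340.8 on null arrays, against 31078.5 to 34619.4 on B6 arrays and 36613.7 to 43089 on 129/Sv arrays. Lyz2 alone, at 22601 to 36646.1 over all arrays, made up most of that sum. The median difference of the 8 was -0.11 for null against B6 and 0.07 for B6 against 129/Sv, opposite in sign to Lyz2. Of endothelium and stroma 2 of 9 were lower in null than in B6 glands, and of secretory cells 1 of 6, of Car6, was higher. The part of these markers in the Papss1 differences was not tested.

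Papss2 had 3 tested probe sets, and all 3 were lower in B6 than in 129/Sv by sign. The first (1421987_at) read 967, 965.2 and 821.2 on null arrays, against 608.2, 838.4, 983 and 844.6 on B6 arrays and 1395.7 and 1337 on 129/Sv arrays. Both 129/Sv arrays lay above all others. It passed between B6 and 129/Sv at -0.75 (SE 0.20, limma adjusted p = 0.0435), a call that held in 6 of 22 other settings. The others gave -0.48 and -0.44 (limma adjusted p = 0.299 and 0.248). Over the list of sulfate uptake and PAPS supply, 14 probe sets of 8 genes were tested. 1 was higher in null than in B6 glands, where 1.11% of all probe sets were higher and 1.07% lower. 2 were lower in B6 than in 129/Sv glands, where 2.27% of all were, and 0 passed for null against 129/Sv, where 2.04% of all did. The list's median B6 against 129/Sv difference was -0.26, against -0.01 over all probe sets.

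1 probe set of Ugp2 was lower in B6 than in 129/Sv glands. Ugp2 makes UDP-glucose, the precursor of UDP-glucuronic acid, and 1 of its probe sets (1451742_a_at) read 5131.4, 5505.9 and 5309.7 on null arrays, against 5255.3, 6111.6, 5056 and 5059.3 on B6 arrays and 7066 and 7226.5 on 129/Sv arrays. Both 129/Sv arrays exceeded all null and B6 arrays. B6 was lower than 129/Sv by a log2 difference of -0.42 (SE 0.11, limma adjusted p = 0.0379), a call that held in 11 of 23 other settings, and null differed from 129/Sv by -0.43 (SE 0.11, limma adjusted p = 0.0807). The 3 other tested Ugp2 probe sets gave strain differences of -0.22, -0.24 and -0.24 (limma adjusted p = 0.599, 0.448 and 0.22). Of the 10 tested probe sets of UDP-glucuronic acid supply this was the 1 that was lower in B6, against 2.27% of all probe sets. In the comparisons of null glands 0 passed. Of all probe sets 2.18% passed against B6, 2.04% against 129/Sv and 1.22% against the mean of both strains.

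**Figure D5:**
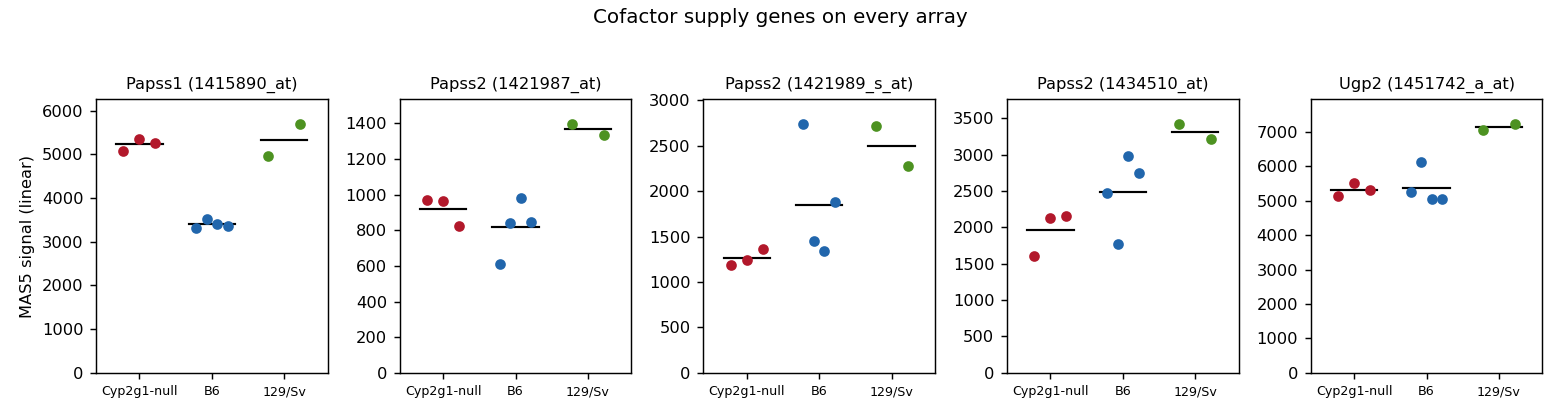
Linear MAS5 signal of probe sets of Papss1, Papss2 and Ugp2 on every array, with group means as black lines, in the order Cyp2g1-null, B6 and 129/Sv. The 4 B6 arrays of Papss1 sit between 3311.8 and 3516.1, below all null and 129/Sv arrays. The 2 arrays of 129/Sv are the highest for Ugp2.

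Other members of both enzyme families that had a probe set of their own were dim as well, unlike the shared Ugt1a probe sets. 4 further sulfotransferase genes were on the array, with 1 probe set each, and 0 were bright enough to be tested. Of these Sult2a2, of the hydroxysteroid sulfotransferase family, read 16.8, 9.7 and 28.8 on null arrays, against 31.2, 102, 234.2 and 186.4 on B6 arrays and 49.1 and 76.3 on 129/Sv arrays. All its null arrays were below all wild-type arrays, the nearest values being 28.8 and 31.2. In this comparison 4.87% of the probe sets tested did not overlap. Sult1c2 read 32.4, 288.8 and 122.6 on null arrays, against 91.5, 45.2, 23.5 and 76.6 on B6 arrays and 37.8 and 27.8 on 129/Sv arrays, and its groups overlapped. Of 9 probe sets of 7 further UDP-glycosyltransferase genes, 0 were tested. The 2 with the highest mean signal were of Ugt3a1 (1451373_at) and Ugt8a (1419063_at). They ranged from 46.3 to 293.7 and from 24.8 to 303.7 over all arrays.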

How the data were processed

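Biotin-labelled RNA of pooled lateral nasal glands was hybridised to 9 one-colour Affymetrix arrays. The authors deposited linear signal intensities. Per the submitters' processing notes these were computed with MAS5, of a version not given here. With 2% of values trimmed at each end, array means ran from 1482.3 to 1484.1, which shows scaling to a shared target. Of 22690 probe sets, 64 controls were left out. Gene symbols came from the platform annotation, in which 20380 probe sets had 1 symbol, 691 several and 1555 none.

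Signals were transformed as log2(signal + 16) and filtered by brightness as given in the text. A mean per group was fitted over all 9 arrays with limma 3.58.1 (R 4.3.3, eBayes with trend), a fit that was tested on simulated data, and calls used an adjusted p of 0.05. The pseudocount understates the change of dim genes, and the number of arrays limits the precision. Each pool was a replicate, no batch is labelled, and nothing says how independently pools were collected, so p-values measure the spread between these pools.

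The genes, lists, alternatives and motifs were chosen with earlier results of these data known. Named besides the members were list probe sets called in any comparison, or else the 2 with the highest mean signal of a list, and Cyp2g1, Omp, S100a5 and Gng13. All 10 genes were found in the RefSeq GRCm38.p6 tables, the source of promoters and chromosomes. The results were recomputed with other scalings (quantile, or medians set equal), other pseudocounts (1 or 64), other filters (none, or the 75th percentile), the brightest probe set of each gene, exclusion of probe sets of the types that match several transcripts, other variance models (no trend, or weights per array), the replicate block, the olfactory marker covariate, a threshold of 0.01, fits of the compared groups alone, and fits that omitted B6 arrays 1 and 2 or any single array.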

Additional observations from a re-analysis of the deposited data

How the results depend on the processing

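The number of tested member probe sets that passed was 0 in each comparison of null glands under every alternative (24, 24 and 23 settings). Between B6 and 129/Sv it was 1 in 20 of 24 settings. It was 0 with the 75th percentile filter, which left no member to test, with B6 arrays 1 and 2 left out, and with an adjusted p of 0.01. Leaving out each array in turn gave 0 to 1, with 0 without 129/Sv array 1. For Sult1d1 the call held in 18 of 23 settings, and in 8 of 9 that left out an array, with values from 1.75 to 2.90 and limma adjusted p-values from 0.0112 to 0.2. Of 451 values of the 5 tested member probe sets under other settings, 410 kept their direction and side of the threshold, 5 lost a call, 2 gained one, 0 reversed as calls and 34 changed sign without a call; the causes were not tested. For the 6 dim probe sets, which had no test, 24 of 452 values changed sign. With the replicate block Sult1d1 was 2.48 (limma adjusted p = 0.0515) and Sult1e1 was -2.51 (adjusted p = 0.024), which leaves the count at 1. Same-numbered arrays of different groups share only a number: the 7 pairs correlated at -0.08 to 0.096 in their deviations, 0 of them over 0.1, and 2 of 8 arrays correlated best with their own number. Counts over all probe sets moved more, from 129 to 598 around 274 for null against B6, from 125 to 412 around 256 for null against 129/Sv, from 52 to 386 around 154 for null against the mean of both strains, and from 342 to 866 around 653 for B6 against 129/Sv. Pools per group (3, 4 and 2) limit every interval given, and 6 of the 11 probe sets had too little signal to be tested.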

Other observations

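Genes that act after or around conjugation were also looked up, in lists chosen with earlier results of these data known. Deconjugating enzymes had 5 tested probe sets, conjugate efflux transporters 4 and regulators of conjugating enzymes 7, and 0 of them passed in any of the 4 comparisons (limma). Of all probe sets, 2.18% passed for null against B6, 2.04% for null against 129/Sv, 1.22% for null against the mean of both strains and 5.19% for B6 against 129/Sv. With shares that low, a count of 0 among so few probe sets says little about these genes. Gusb encodes the lysosomal beta-glucuronidase. Its brighter probe set (1448124_at) had signals of 3148.3, 3219 and 3004.8 on null arrays, against 2804.1, 3043.5, 2974.9 and 3091.3 on B6 arrays and 2518.3 and 2262.4 on 129/Sv arrays. Both 129/Sv arrays lay below all others there. Of all probe sets 31.5% did not overlap between null and 129/Sv arrays, and 25.1% between B6 and 129/Sv arrays. The differences from 129/Sv were 0.39 for null glands (SE 0.12, unadjusted p = 0.00606, limma adjusted p = 0.147) and 0.32 for B6 glands (SE 0.11, unadjusted p = 0.0142, limma adjusted p = 0.147). The other Gusb probe set (1430332_a_at), also tested, read 819.1, 646 and 790.8 on null arrays. It read 697.2, 620.2, 976.1 and 1042.2 on B6 arrays and 470.7 and 808.6 on 129/Sv arrays, so its groups overlapped. Sumf1, which activates sulfatases, averaged 1061 ± 162.8 in null glands, 1024 ± 167.2 in B6 glands and 1358 ± 140.7 in 129/Sv glands (SD, n = 3, 4 and 2), with a B6 against 129/Sv difference of -0.41 (limma adjusted p = 0.279).

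Abcc1 and Abcc5, exporters of conjugates, gave null against B6 differences of -0.21 and 0.19 (limma adjusted p = 0.68 and 0.758). Foxa1, a forkhead transcription factor, had signals of 6482.1, 6258.6 and 5431.8 on null arrays, against 5533.6, 5438.3, 3378.5 and 1955.6 on B6 arrays and 4918.9 and 3345 on 129/Sv arrays. B6 arrays 3 and 4 lay below B6 arrays 1 and 2, and null glands differed from B6 by 0.68 (SE 0.28, unadjusted p = 0.0295, limma adjusted p = 0.278). Nfe2l2, which encodes the stress-responsive factor NRF2, averaged 3510 ± 343.9 in null glands, 3132 ± 199.7 in B6 glands and 3948 ± 397.9 in 129/Sv glands (SD, n = 3, 4 and 2), with a B6 against 129/Sv difference of -0.33 (limma adjusted p = 0.167).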
